A study of Mus musculus with 7 samples.

Results

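The 10 genes described here are imprinted genes that control fetal growth: H19, Igf2, Cdkn1c, Dlk1, Meg3, Peg3, Grb10, Mest, Plagl1 and Igf2r. They were taken by symbol from the deposited table, in which all 10 are listed among 16167 genes. RNA-seq was run on whole kidneys of E15.5 mouse embryos, 7 libraries in all. The 4 mutant libraries came from Six2-Cre; Irx3/5(loxP/loxP) embryos, in which both copies of the linked Iroquois homeobox genes Irx3 and Irx5 are floxed and a Six2-driven Cre recombinase acts in nephron progenitors. The 3 control libraries came from Irx3/5(loxP/+) littermates, which carry a single floxed copy. The control labels name no Cre, so a Cre transgene effect and a deletion effect cannot be told apart. The number of embryos behind a library is not given; p-values therefore measure how far these libraries vary, which may be technical.

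An imprinted gene is transcribed from the copy inherited from a single parent. DNA methylation marks a nearby control region on a single parental copy, which can be the active or the silent copy of the gene. Many of these genes rise and fall together in fetal and neonatal tissues and decline as growth slows after birth, which led to the idea of an imprinted gene network. Broadly, genes expressed from the paternal copy (Igf2, Dlk1, Peg3, Mest, Plagl1) promote growth, and genes expressed from the maternal copy (H19, Cdkn1c, Grb10, Igf2r) restrain it; Meg3 is a maternally expressed noncoding RNA. The libraries hold reads from both copies together, so parental origin was not measured.

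H19 is a noncoding RNA whose first exon also holds the hairpin of the microRNA miR-675. Because H19 was the member with the highest level and the only 1 called in the authors' deposited test, the mature arms of that microRNA are shown from RefSeq (GRCm38.p6, chromosome 7, minus strand), with the seed (bases 2 to 8) in capitals. The 5p arm lies at chr7:142577112-142577133 and the 3p arm at chr7:142577078-142577099. Mature microRNAs were not measured by this assay.
mmu-miR-675-5p: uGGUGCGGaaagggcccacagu
mmu-miR-675-3p: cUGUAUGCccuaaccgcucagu

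The control regions of imprinted genes are rich in CpG dinucleotides, the sites of DNA methylation. The windows below are promoters, and whether they hold any control region was not tested. The RefSeq promoter table (250 bases before to 50 after a transcript start, GRCm38.p6) held 15 windows for 8 of the 10 members; H19 and Cdkn1c had no entry. Among the 15, the CpG count ran from 1 at a Meg3 start to 45 at a Grb10 start, against a median of 7 over all 32851 windows. Of these, 3 are shown with each CpG in capitals: the Plagl1 window, because the mutant and control libraries of that gene did not overlap, and windows of Dlk1 and Meg3, the neighbours with the widest spread. The Plagl1 window (chr10:13090582-13090881, plus strand) holds 26 CpGs, a count reached by 16.9% of all windows. The Dlk1 window (chr12:109452573-109452872, plus strand) holds 9, and the Meg3 window (chr12:109540746-109541045, plus strand) holds 13.
Plagl1: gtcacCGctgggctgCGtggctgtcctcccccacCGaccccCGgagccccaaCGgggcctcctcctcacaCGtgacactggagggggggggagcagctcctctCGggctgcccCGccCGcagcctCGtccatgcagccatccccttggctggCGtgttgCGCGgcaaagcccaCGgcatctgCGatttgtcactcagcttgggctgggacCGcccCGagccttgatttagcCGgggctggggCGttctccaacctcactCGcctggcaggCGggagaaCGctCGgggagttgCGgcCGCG
Dlk1: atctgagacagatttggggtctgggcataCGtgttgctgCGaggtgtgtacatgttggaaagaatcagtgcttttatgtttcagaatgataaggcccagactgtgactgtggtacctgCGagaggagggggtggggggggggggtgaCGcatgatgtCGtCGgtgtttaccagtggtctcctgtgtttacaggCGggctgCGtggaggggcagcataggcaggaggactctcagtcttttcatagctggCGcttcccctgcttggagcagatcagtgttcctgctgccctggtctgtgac
Meg3: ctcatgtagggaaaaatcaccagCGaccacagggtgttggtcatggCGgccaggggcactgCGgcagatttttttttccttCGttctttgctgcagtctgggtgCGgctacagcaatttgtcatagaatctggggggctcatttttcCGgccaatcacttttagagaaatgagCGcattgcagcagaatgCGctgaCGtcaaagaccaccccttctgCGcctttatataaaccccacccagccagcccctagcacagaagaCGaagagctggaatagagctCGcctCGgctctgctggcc

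The Iroquois motif ACANNTGT, which is its own reverse complement and so was read on both strands, was in 0 of the 15 member windows and in 7.38% of all windows. No match says only that these letters are not in these windows.

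Irx3 checked the labels. It was at 6.63, 3.98, 5.57 and 6.75 FPKM in mutant replicates 1 to 4, against 14.7, 14.2 and 12.7 FPKM in control replicates 1 to 3 (exact permutation p = 0.0286, two-sided, the smallest that 35 splits allow). Irx5 was at 2.05, 0.895, 1.13 and 2.03 FPKM in mutant replicates 1 to 4, against 1.36, 1.55 and 1.59 FPKM in control replicates 1 to 3 (exact permutation p = 0.886). Where the loxP sites lie is not given in the sources used here, so reads outside the deleted part would check nothing. Reads in listed genes, recovered from the table, ran from 45539155 to 53497462 in mutants and from 40511920 to 69028943 in controls. FPKM is fragments per kilobase of gene length, scaled for sequencing depth. Each fold change below is the mutant mean less the control mean of log2(FPKM + 1), which understates changes of low genes, and a gene was called changed at a Benjamini-Hochberg adjusted p under 0.05 in limma over all 13466 genes tested.

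Of the 10 members, 0 passed that threshold by limma, with 3 members at an unadjusted p under 0.05 (Plagl1 and H19 with values above 0, Cdkn1c below), 0 by limma-voom on recovered reads and 1, H19, in the authors' deposited DESeq2 table. Over all genes tested, limma called 1.53% (0.475% higher, 1.05% lower) and limma-voom 1.62%, and 13.7% had an unadjusted p under 0.05. The authors' deposited table called 5.49% of its genes in either direction and 1.75% as higher. The median fold change of the members was 0.04, with 6 above 0 and 4 below, against a median of -0.00 over all genes tested, where 6629 were above 0 and 6837 below. The libraries of the groups did not overlap for 2 of the 10, H19 and Plagl1, both higher in mutants; all genes tested gave 14.5% in either direction, 5.93% higher and 8.61% lower.

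**Figure D1:**
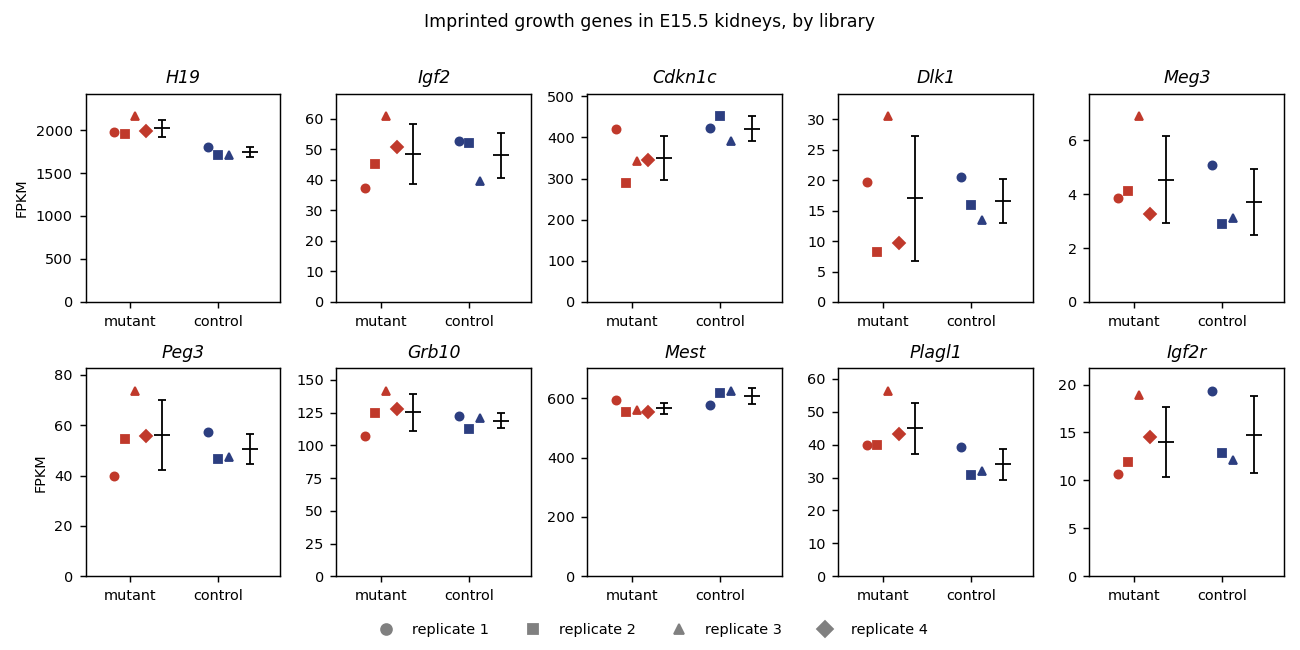
FPKM of the 10 members in each library (mutants left, controls right, marker shape for the replicate number), with the mean and SD of each group as a bar beside the points (n = 4 mutants, n = 3 controls) and every axis starting at 0. For H19 and Plagl1 all 4 mutants lie above all 3 controls, and mutant replicate 3 is the highest library for 7 of the 10 genes.

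H19 (ENSMUSG00000000031.17) was 1.16 times as high in mutants as in controls by mean FPKM. It stood at 1976, 1956, 2160 and 1985 FPKM in mutant replicates 1 to 4, against 1808, 1712 and 1712 FPKM in control replicates 1 to 3. Every mutant library lay above every control library, and the 4 mutants spanned 1.10-fold. The fold change was 0.21 (SE 0.084, 95% interval 0.02 to 0.40; limma adjusted p = 0.299; exact permutation p = 0.0286). The authors' deposited table gives 0.21 (SE 0.069) with an adjusted p of 0.0430, so the call differed between the 2 models. With quantile normalization the fold change was 0.06 (limma adjusted p = 0.871). That step gives all libraries the same value at each rank, so it can shrink the difference of a gene ranked this high. Under the other alternatives the fold change ran from 0.18 (without mutant replicate 3) to 0.24 (without control replicate 1). H19 ranked 6 among the 16167 listed genes by mean FPKM and rested on 173011 to 310809 reads per library.

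Plagl1 (ENSMUSG00000019817.19), a zinc finger transcription factor that regulates other genes of the imprinted network, including Igf2 and H19, in mice, was 1.32 times as high in mutants by mean FPKM. Its level was 40.0, 40.0, 56.4 and 43.4 FPKM in mutant replicates 1 to 4, against 39.4, 30.7 and 32.1 FPKM in control replicates 1 to 3. The groups did not overlap, but mutant replicates 1 and 2 lay within 1 FPKM of control replicate 1. The fold change was 0.39 (SE 0.13, 95% interval 0.08 to 0.69; limma adjusted p = 0.227; exact permutation p = 0.0857), and 0.27 without mutant replicate 3 (limma adjusted p = 0.266). The authors' deposited table gives 0.40 with an adjusted p of 0.0832.

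Cdkn1c (ENSMUSG00000037664.14) encodes p57, an inhibitor of cyclin-dependent kinases that halts the cell cycle and in the kidney is strongly expressed in podocytes. It stood at 421, 290, 343 and 345 FPKM in mutant replicates 1 to 4, against 423, 452 and 390 FPKM in control replicates 1 to 3. Mutant replicate 1 lay among the controls, and the other 3 mutants lay below all of them. The fold change was -0.28 (SE 0.12, 95% interval -0.56 to -0.00; limma adjusted p = 0.358; exact permutation p = 0.0857), and -0.37 without mutant replicate 1 (limma adjusted p = 0.0762). Podocyte markers stood beside it: of the other 11 listed podocyte markers, 10 were tested, 4 fell and 6 did not pass, with a median of -0.43. Of the 10, 8 were lower at an unadjusted p under 0.05, 4 were called by limma-voom and 8 were lower in the authors' deposited table. The summed level of the 11 was 209 to 254 FPKM in mutants, against 274 to 292 FPKM in controls. In whole kidneys, fewer cells of a type and less RNA per cell cannot be told apart, and the part of podocyte content in the Cdkn1c value was not tested.

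Stromal, macrophage, endothelial, erythroid and liver markers had positive median fold changes, as H19 and Plagl1 had positive values. The 8 endothelial markers summed to 194 to 204 FPKM in mutants and 181 to 191 FPKM in controls (median 0.12, 0 passed limma). The 9 erythroid markers tested had a median of 0.30, 0 passed limma, and the summed ranges of the groups overlapped. The summed level of the 16 stromal markers was 1035 to 1295 FPKM in mutants and 801 to 1050 FPKM in controls, so the summed ranges overlapped. Of the 16, 2 rose, 14 did not pass and the median fold change was 0.28. At an unadjusted p under 0.05 7 were higher, 2 were called by limma-voom and 6 were higher in the authors' deposited table. The 9 macrophage markers summed to 39.5 to 44.2 FPKM in mutants and 32.1 to 33.1 FPKM in controls, and 0 of the 9 passed limma (6 at an unadjusted p under 0.05, 0 by limma-voom, 1 in the authors' deposited table; median 0.23). Markers of nephron progenitors, the cells in which Six2-Cre acts, also differed: 5 of the 12 markers fell and 1 rose, the other 6 missed the threshold, and the median was -0.36. They summed to 198 to 222 FPKM in mutants and 276 to 280.4 FPKM in controls, with no overlap. The part of these cell types in the member values was not tested.

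Igf2, its clearance receptor and the adaptor Grb10 had overlapping groups. Igf2 (ENSMUSG00000048583.17), the fetal insulin-like growth factor, stood at 37.2, 45.4, 60.8 and 50.7 FPKM in mutant replicates 1 to 4 and at 52.6, 52.1 and 39.5 FPKM in control replicates 1 to 3. The lowest and the highest library were both mutants, and the fold change was 0.00 (SE 0.17, 95% interval -0.38 to 0.38; limma adjusted p = 0.999). Igf2r (ENSMUSG00000023830.15), which carries IGF2 into lysosomes for breakdown, was at 10.6, 11.9, 18.9 and 14.5 FPKM in mutant replicates 1 to 4 and at 19.4, 12.8 and 12.1 FPKM in control replicates 1 to 3. Mutant replicate 3 and control replicate 1 were high together, and the other libraries lay between 10.6 and 14.5. Its fold change was -0.07 (SE 0.22, 95% interval -0.58 to 0.43; limma adjusted p = 0.948). Grb10 (ENSMUSG00000020176.18), an adaptor protein that dampens insulin and IGF receptor signalling, was at 107, 125, 142 and 128 FPKM in mutant replicates 1 to 4 and at 123, 112 and 121 FPKM in control replicates 1 to 3. The mutants enclosed the controls, and the fold change was 0.07 (SE 0.095, 95% interval -0.14 to 0.29; limma adjusted p = 0.853).

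Dlk1 and Meg3, neighbours on chromosome 12 expressed from opposite parental copies, differed more between libraries than between groups. Dlk1 (ENSMUSG00000040856.18), a transmembrane protein with EGF repeats that holds progenitors undifferentiated, stood at 19.7, 8.27, 30.5 and 9.62 FPKM in mutant replicates 1 to 4 and at 20.5, 16.0 and 13.4 FPKM in control replicates 1 to 3. The mutants fell into a high and a low pair on either side of the control mean and spanned 3.69-fold, the widest range of the 10 members. The fold change was -0.13 (SE 0.45, 95% interval -1.20 to 0.94; limma adjusted p = 0.957). Meg3 (ENSMUSG00000021268.18) was at 3.85, 4.12, 6.89 and 3.27 FPKM in mutant replicates 1 to 4 and at 5.10, 2.90 and 3.10 FPKM in control replicates 1 to 3. Mutant replicate 3 was high, followed by control replicate 1, and the fold change was 0.22 (SE 0.23, 95% interval -0.31 to 0.76; limma adjusted p = 0.789).

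Mest and Peg3 completed the paternally expressed set. Mest (ENSMUSG00000051855.16), a protein with the fold of a hydrolase, was the steadiest member, at 595, 553, 561 and 555 FPKM in mutant replicates 1 to 4 and at 576, 618 and 626 FPKM in control replicates 1 to 3. Only mutant replicate 1 reached into the control range, and the fold change was -0.10 (SE 0.074, 95% interval -0.27 to 0.07; limma adjusted p = 0.664). Peg3 (ENSMUSG00000002265.18), a zinc finger protein, was at 40.0, 54.6, 73.7 and 55.9 FPKM in mutant replicates 1 to 4 and at 57.3, 46.7 and 47.4 FPKM in control replicates 1 to 3. Mutants held both the lowest and the highest value, and the fold change was 0.12 (SE 0.18, 95% interval -0.30 to 0.54; limma adjusted p = 0.875).

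**Figure D2:**
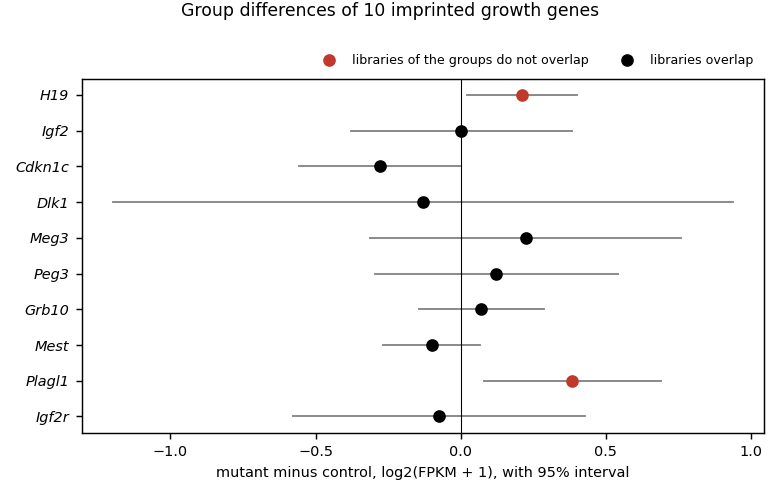
Mutant minus control difference of each member on the log2(FPKM + 1) scale from limma (points) with its 95% interval (lines); red points mark genes whose mutant and control libraries do not overlap. The intervals of H19 and Plagl1 lie above 0 before adjustment, that of Cdkn1c lies just below it, and Dlk1 has the widest, from -1.20 to 0.94.

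Ratios within a library, which do not depend on how libraries were scaled, also overlapped between groups. A trend with gene length within a library, given below, can still enter them. The implied gene length was 2463 bases for H19 and 5518 for Igf2, and 18113 for Meg3 and 5582 for Dlk1. The part of that trend in the ratios was not tested. The FPKM ratio of H19 to Igf2, genes that share enhancers and a control region, was 53.1, 43.1, 35.5 and 39.2 in mutant replicates 1 to 4 and 34.4, 32.8 and 43.3 in control replicates 1 to 3 (difference of mean log2 ratios 0.21; exact permutation p = 0.314). The ratio of Meg3 to Dlk1 was 0.196, 0.498, 0.226 and 0.340 in mutants and 0.248, 0.181 and 0.232 in controls (difference 0.43; exact permutation p = 0.343). The ratio of Igf2 to Igf2r ran from 3.22 to 3.81 in mutants and was 2.72, 4.06 and 3.27 in controls (difference 0.08; exact permutation p = 0.600). Adjusted over the 3 ratios, the permutation p-values were 0.514, 0.514 and 0.600. Single libraries decided the size of each difference. That of H19 to Igf2 was 0.10 without mutant replicate 1, 0.13 without control replicate 2 and 0.33 without control replicate 3. That of Meg3 to Dlk1 was 0.18 without mutant replicate 2, and that of Igf2 to Igf2r was -0.06 without control replicate 1, 0.04 without mutant replicate 2 and 0.23 without control replicate 2. The Meg3 to Dlk1 ratio spanned 2.75-fold over the libraries and was highest in mutant replicates 2 and 4, the libraries with the lowest Dlk1.

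**Figure D3:**
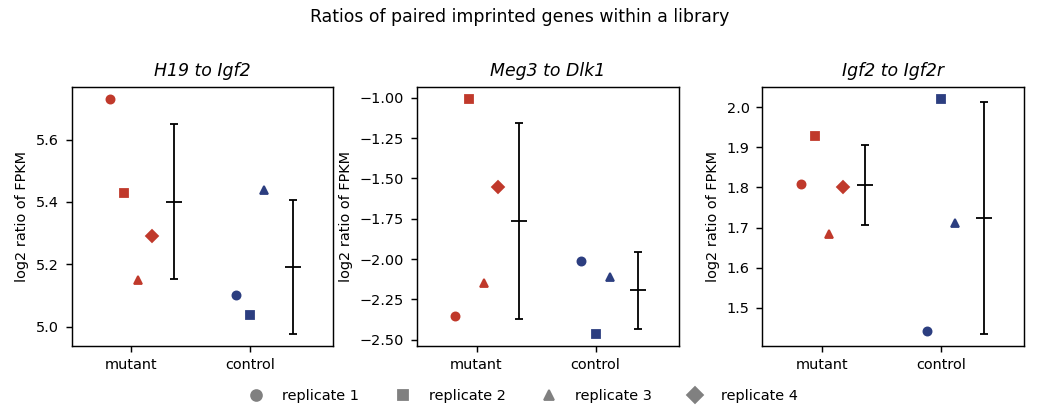
Log2 ratio of FPKM within each library for H19 to Igf2, Meg3 to Dlk1 and Igf2 to Igf2r (mutants left, controls right, marker shape for the replicate number; bars give mean and SD, n = 4 mutants and n = 3 controls; axes do not start at 0). The groups overlap in all 3 panels, and mutant replicate 2 has the highest Meg3 to Dlk1 value.

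The highest and lowest libraries were unevenly spread over the members. Mutant replicate 3 was the highest of the 7 libraries for 7 members (H19, Igf2, Dlk1, Meg3, Peg3, Grb10 and Plagl1), while 2090 of all 13466 genes tested were highest there. Mutant replicate 1 was the lowest for 4 members (Igf2, Peg3, Grb10 and Igf2r), against 3366 of all genes tested. Of the other 3 members, Cdkn1c, Mest and Igf2r, each was highest in a control. Mutant replicate 3 also stood apart in a measure of embryonic stage: the embryonic beta-globin gene Hbb-y had 10.5% of the level (FPKM) of adult-type Hbb-bs in mutant replicate 3, against 1.38% to 2.24% in the other mutants and 1.34% to 3.45% in controls. The part of stage in the member values was not tested.

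Libraries also differed by gene length, and 8 of the 10 members have a gene length, as implied by their FPKM, above the median of 3451 bases over genes tested. For genes over 9000 bases, the median deviation from the gene mean was -0.29 in mutant replicate 1, 0.05, 0.14 and 0.04 in mutant replicates 2 to 4, and 0.14, -0.02 and -0.05 in control replicates 1 to 3, on the log2(FPKM + 1) scale. For genes of up to 1500 bases it was 0.17 in mutant replicate 1 and -0.07 in mutant replicate 3. With each library's length trend subtracted, the SD within groups was smaller for 8 of the 10 members (for Grb10 0.061 after subtraction, 0.14 before) and larger for H19 (0.095 after, 0.059 before) and Dlk1 (0.68 after, 0.67 before). Mutant replicate 3 was still the highest library for 7 members. The lowest library was control replicate 2 for 5 members (H19, Meg3, Peg3, Grb10 and Plagl1), mutant replicate 2 for 4, control replicate 3 for 1 and mutant replicate 1 for 0. The call of 0 members held, H19 and Plagl1 still separated the groups, with fold changes of 0.21 and 0.40 (limma adjusted p = 0.153 and 0.107), and Cdkn1c was at -0.28 (limma adjusted p = 0.168).

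**Figure D4:**
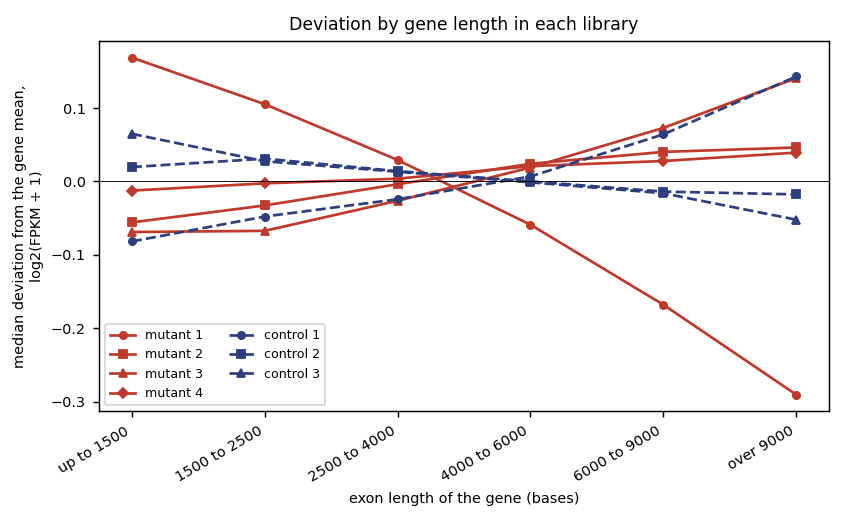
Median deviation from the gene mean in each library (y axis, log2(FPKM + 1)) for genes tested in 6 classes of gene length (x axis, bases); red solid lines are mutants, blue dashed lines controls. Mutant replicate 1 falls to -0.29 for genes over 9000 bases, and mutant replicate 3 and control replicate 1 rise to 0.14.

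**Figure D5:**
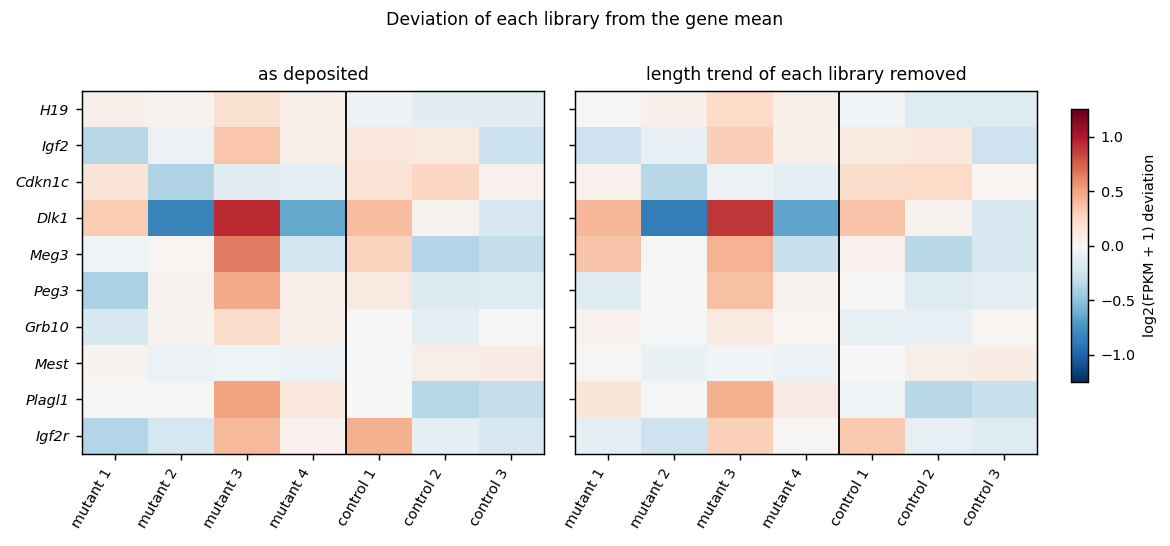
Deviation of each library from the gene mean for the 10 members, on the log2(FPKM + 1) scale (red above, blue below; mutants left of the line, controls right of it), as deposited and with each library's length trend removed. The column of mutant replicate 3 stays red for most members in both panels, while mutant replicate 1 turns paler for Igf2, Peg3, Grb10 and Igf2r.

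Skeletal muscle, a tissue with high H19, Igf2, Dlk1 and Meg3 in the mouse fetus, was represented unevenly. The 8 listed of 17 muscle markers summed to 19.9 to 28.8 FPKM in mutants, to 98.0 FPKM in control replicate 1 and to 23.5 and 25.5 FPKM in the other controls; the muscle-determining genes Myod1, Myog, Myf5 and Myf6 are not in the table, and 0 of 5 markers tested passed limma (0 at an unadjusted p under 0.05, 0 by limma-voom, 0 in the authors' deposited table). Control replicate 1 also had a median deviation of 0.14 for genes over 9000 bases, on the log2(FPKM + 1) scale. Without control replicate 1, the fold changes were 0.24 for H19, 0.49 for Plagl1, 0.07 for Igf2, 0.10 for Grb10 and 0.22 for Peg3. They were 0.03 for Dlk1, 0.43 for Meg3, 0.13 for Igf2r, -0.28 for Cdkn1c and -0.14 for Mest. The limma adjusted p-values of these 10 members ran from 0.239 to 0.998. Of 14 markers of the adrenal gland, a tissue rich in Dlk1, 5 were listed, and their sum was 2.37 to 3.44 FPKM in mutants and 2.09 to 3.75 FPKM in controls, with the steroidogenic genes Star and Cyp11a1 at most 0.209 and 0.482 FPKM. The 1 adrenal marker tested, the ACTH receptor Mc2r, rose, at 1.87 ± 0.23 FPKM in mutants and 1.06 ± 0.13 FPKM in controls, all mutants above all controls (SD, n = 4 and 3; fold change 0.48, SE 0.094; limma adjusted p = 0.0472); limma-voom called 0 of this list, and 1 was called in the authors' deposited table. The part of muscle, adrenal or liver RNA in the member values was not tested. Liver markers summed to 16.6 to 55.8 FPKM in mutants and 27.9 to 34.3 FPKM in controls.

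The exon model behind each FPKM bears on the levels. Against the union of all annotated exons in GENCODE M21, the lengths implied by the table ran from 0.682 times for Peg3 (9090 bases, against 13324) to 1.00 times for H19, Meg3, Grb10 and Igf2r. In that annotation 62.8% of the Igf2 exon bases are shared with Gm49394 on the same strand. Opposite-strand genes cover 30.7% of the Cdkn1c exon bases (Gm44732, at 7.18 to 9.67 FPKM in mutants and 10.5 to 11.3 FPKM in controls) and 23.1% of those of Mest (Copg2). How the authors' counting treated shared bases is not given in the sources used here. The levels of Igf2, Cdkn1c and Mest, and comparisons of them with other genes, are therefore uncertain. Meg3 ranked 9870 by mean FPKM, with its level averaged over 18113 bases. Which of its transcripts were present was not measured.

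Among neighbours in the same imprinted domains, 1 low gene was called, and it met the filter on low values only through the controls. Slc22a2, which encodes an organic cation transporter of the proximal tubule and lies beside Igf2r, was at 0.912, 0.585, 0.166 and 0.408 FPKM in mutant replicates 1 to 4 and at 3.17, 2.87 and 2.11 FPKM in control replicates 1 to 3. All mutants lay below all controls (fold change -1.30, SE 0.17, limma adjusted p = 0.0150), and the call was lost without mutant replicate 4 (limma adjusted p = 0.0592). By mean FPKM Slc22a2 was 0.19 times as high in mutants, so -1.30 understates the change of this low gene. The authors' deposited table gives -2.39 (DESeq2 adjusted p = 1.1e-06), and limma-voom gave -2.61 (adjusted p = 0.0240). Every mutant was under the minimum of 1 FPKM, so a gene that passed in this way had to differ between groups; with no filter its limma adjusted p over all 16167 genes was 0.0136. Proximal tubule markers moved with it, and their part in its value was not tested: all 12 tested had fold changes below 0, 4 fell and 8 did not pass. Of the 12, 11 were lower at an unadjusted p under 0.05, 3 were called by limma-voom and 6 were lower in the authors' deposited table. The summed level of the 14 listed markers, Slc22a2 not included, was 47.3 to 102 FPKM in mutants and 130 to 161 FPKM in controls. The other 11 of 12 neighbours tested did not pass, and 5 were too low to be tested. Of these 5, Dio3, in the domain of Dlk1 and Meg3, had all mutants above all controls, and the rest overlapped. Dio3 was at 0.51 ± 0.16 FPKM in mutants and 0.25 ± 0.058 FPKM in controls (SD, n = 4 and 3), on 17 to 64 reads per library. Its exact permutation p was 0.0857, and its DESeq2 adjusted p in the authors' deposited table was 0.121. Airn, the antisense RNA that silences the paternal Igf2r copy, was at 2.20 ± 0.27 FPKM in mutants and 2.40 ± 0.20 FPKM in controls (SD, n = 4 and 3). Rian, a noncoding RNA downstream of Meg3, was at 3.70 ± 0.63 FPKM in mutants and 3.17 ± 0.40 FPKM in controls (SD, n = 4 and 3), highest in mutant replicate 3 like Meg3. By parental copy, the 5 maternally expressed members had fold changes from -0.28 to 0.22 and the 5 paternally expressed members from -0.13 to 0.39. The neighbours were chosen for their position; these among them fall outside the rule for named genes.

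Over a wider list of 72 other imprinted genes, 60 were in the table and 48 were tested. Imprinting can differ between tissues, and whether these genes or the neighbours above are imprinted in fetal kidney was not tested. Of the 48, 0 rose, 1 fell and 47 did not pass. The 1 was Slc22a2, which was tested only because the 3 controls reached 1 FPKM, so the count is no support for a direction. With no filter, all 60 were tested and the count was also 1. Over the 48, the median was 0.02, with 27 above 0 and 21 below. Dcn, decorin, a matrix proteoglycan that is also a stromal marker, was at 85.2, 76.6, 90.6 and 71.3 FPKM in mutant replicates 1 to 4 and at 64.9, 60.03 and 38.0 FPKM in control replicates 1 to 3 (difference 0.60, SE 0.18; adjusted p = 0.158 by limma). It was higher in the authors' deposited table (adjusted p = 0.0188). Sgce, epsilon-sarcoglycan, had a fold change of 0.22 (SE 0.074), and Blcap, Cd81, Slc38a4 and Asb4 had 0.14 to 0.23. Atp10a, Begain, H13, Gatm and Ppp1r9a had -0.33 to -0.14, and none of these 10 passed limma (adjusted p from 0.199 to 0.546). Gatm is also a proximal tubule gene.

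Genes that maintain imprints or act with the members showed no calls by limma. Of 16 tested factors that keep imprints, among them the methyltransferase Dnmt1 and the insulator protein Ctcf, 0 passed by limma (0 at an unadjusted p under 0.05, 0 by limma-voom, 0 in the authors' deposited table) and the median was -0.02. The smallest p-values were those of Kdm1b, a histone demethylase, at 4.95 ± 0.40 FPKM in mutants and 5.70 ± 0.21 FPKM in controls (limma adjusted p = 0.370), and of Zfp57, a zinc finger protein that protects methylated imprints, at 10.8 ± 0.81 and 9.46 ± 0.71 FPKM (limma adjusted p = 0.396; SD, n = 4 mutants and 3 controls). Of 16 tested IGF partners 0 passed (3 at an unadjusted p under 0.05, 0 by limma-voom, 1 in the authors' deposited table). The binding protein Igfbp7 was at 71.8 ± 18.7 FPKM in mutants and 108 ± 13.6 FPKM in controls (limma adjusted p = 0.184; 0.0305 without mutant replicate 1), and Igfbp6 at 21.4 ± 6.03 and 14.4 ± 1.06 FPKM (limma adjusted p = 0.297). Of 15 tested cyclins, kinases and CDK inhibitors 0 passed (3 at an unadjusted p under 0.05, 0 by limma-voom, 1 in the authors' deposited table). Cdkn1a, the p21 relative of Cdkn1c, was at 12.1, 12.3, 8.92 and 9.57 FPKM in mutant replicates 1 to 4 and at 7.65, 7.18 and 7.73 FPKM in control replicates 1 to 3, all mutants above all controls (fold change 0.45, SE 0.11; limma adjusted p = 0.0945; adjusted p = 0.00607 in the authors' deposited table). Cyclin E1 (Ccne1) was at 25.7 ± 1.38 FPKM in mutants and 22.5 ± 0.82 FPKM in controls (SD, n = 4 and 3; limma adjusted p = 0.229).

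The gene most like each member over the 7 libraries was sought among about 9261 genes with a mean of at least 5 FPKM. This is a description, in which the libraries' shared length trend also counts. Each value is the largest of that search, so high values arise over 7 libraries even for unlinked genes. Pearson's r was 0.98 for H19 with Mvb12b, 0.96 for Igf2 with Clec16a, 0.99 for Cdkn1c with Slc27a3, 0.97 for Dlk1 with Sfrp2 and 0.98 for Meg3 with Ggcx. It was 0.99 for Peg3 with Med23, 0.98 for Grb10 with Gprasp1, 0.98 for Mest with Noc2l, 0.97 for Plagl1 with Exosc10 and 0.99 for Igf2r with Polr1a. None of these partners is a member; within the 10, the closest pairs were Peg3 with Grb10 (0.96) and H19 with Plagl1 (0.95).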

How the data were processed

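Libraries were prepared with a directional NEB kit, per the labels' protocols. The submitters' processing notes name HTSeq 0.6.1p2, STAR 2.6.0c, DESeq2, FastQC 0.11.5 and Trim Galore 0.5.0, and GRCm39; the strand setting of counting is not given in the sources used here. The authors deposited 1 table of 16167 genes with FPKM per library. Per the file headers it also holds the DESeq2 mean of normalized counts (a signal), the log2 fold change and its error, the test statistic (a score), and p-value columns, which were copied and not recomputed. The lowest mean of normalized counts listed is 18.5.

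Reads were recovered by combining FPKM shares, mean normalized counts and library size factors; 100% of entries came out whole to within 0.05, and these reads give depth and gene lengths. The test was limma 3.58.1 in R 4.3.3, two-sided, with trended and robust empirical Bayes on log2(FPKM + 1), for the 13466 genes reaching 1 FPKM in 3 or more libraries. The fit was tested on simulated data. Single values and the 3 ratios used exact permutation over 35 splits, two-sided. The members and gene lists were chosen with earlier results of these data known. Named genes were the 10 members, the targeted genes, the 12 other imprinted genes and the 2 genes per partner list with the smallest p (all past the threshold, if more), the gene most like each member, and marker genes. Alternatives covered the pseudocount, filter, scaling, block, test and left-out libraries; removal of the length trend (lowess, span 0.3) was added after seeing the data. Tables and plots used Python 3.11.15, pandas 2.3.3 and matplotlib 3.10.9. GENCODE M21 (GRCm38) served only for exon lengths and overlaps, and RefSeq windows are on GRCm38.p6, not the build of the table.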

Additional observations from a re-analysis of the deposited data

Results flagged for a closer look

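Of 49 values checked in the 4 mutants, 3 had a library far from the other mutants, where chance gives about 1 in 20. H19 was at 2160 FPKM in mutant replicate 3, above the other mutants at 1956 to 1985 FPKM. Rtl1, a paternally expressed neighbour of Dlk1, was at 0.420 FPKM in mutant replicate 3 (123 reads), against 0.031 to 0.093 FPKM in the other mutants (10 to 32 reads); the controls were spread as well, at 0.254, 0.147 and 0.042 FPKM (113, 56 and 11 reads). H13 was at 18.9 FPKM in mutant replicate 1, against 16.3 to 16.7 FPKM in the other mutants.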

How the results depend on the processing

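The count of 0 members held under the 16 alternatives run by limma or limma-voom and was 1 in the authors' deposited table, where H19 was called. H19, Cdkn1c, Mest, Plagl1, Grb10 and Meg3 kept their direction under all alternatives run for them. The fold change of H19 was 0.06 with quantile normalization, which can shrink differences of top-ranked genes, against 0.21 as first tested. That of Meg3 ranged from 0.04 (without mutant replicate 3) to 0.43. That of Grb10 ranged from 0.01 (without mutant replicate 3) to 0.14 (without mutant replicate 1). Igf2, Dlk1, Peg3 and Igf2r changed sign in some without being called. The count of other imprinted genes was 0 with a minimum of 5 FPKM and with the replicate block, 2 in the authors' deposited table and 0 to 1 with a library left out; with any single control library left out Slc22a2 no longer passed the filter. Over all genes, 206 calls became 109 with a pseudocount of 0.1, 60 with a minimum of 5 FPKM, 886 in the authors' deposited table, 422 without the length trend and 11 (without control replicate 2) to 486 (without mutant replicate 1) with a library left out. The Irx3 difference was -8.73 to -7.55 FPKM with a library left out, where exact permutation p was 0.0667 or 0.1, the smallest those designs allow. The share of higher calls was 64 of 206, 31 of 60 with a minimum of 5 FPKM, 44 of 109 with a pseudocount of 0.1, 71 of 174 with quantile normalization and 49 of 235 with libraries rescaled to the same sum. The causes were not tested. The ratios' permutation p stayed above 0.05 with a pseudocount of 1; the designs with a library left out or a block could not have reached 0.05. Leaving out a library moved the differences over 0.10 to 0.33 for H19 to Igf2, 0.18 to 0.62 for Meg3 to Dlk1 and -0.06 to 0.23 for Igf2 to Igf2r. The replicate number as a block left 2 calls over all genes and 0 members. The correlation of same-numbered libraries' deviations was -0.16, 0.03 and 0.10, against -0.25 to 0.14 for differently numbered libraries. With so few libraries, these values cannot decide whether a shared number marks a pair. The main test took the libraries as unpaired. Which libraries share a litter is not given. With the block, the ratio differences were 0.24, 0.36 and 0.08. With 4 against 3 libraries, exact permutation cannot go below 0.0286. The lowest member count was 2157 reads (Dlk1).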
